A study of Mus musculus with 10 samples.

Results

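Regions of CUT&Tag signal that lie in an intron after the first one of their transcript were examined in neural stem and progenitor cells (NSPCs) of mouse brain. CUT&Tag maps a chromatin feature by tethering a DNA-cutting transposase to the antibody bound there, and the regions are those in which the authors called a peak in at least 1 library. A region counted as later-intron when the authors' annotation placed it in an intron other than intron 1 of a transcript. The rule uses no measured signal, and it selected 18067 of 69418 regions (26.0%).

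The genotypes compared were wild type (WT) and Mina53-KO, with 2 CUT&Tag and 3 RNA-seq libraries of each, all labelled untreated. Mina53 is the JmjC-domain protein encoded by Riox2. The age and strain of the mice, the brain region, the way the KO was made and the antibody are unstated in the labels and files used. Nothing in the labels ties a library to its own animal or culture, and the p-values therefore reflect the spread among these libraries alone.

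Introns after the first begin downstream of the promoter and of the early-elongation part of a gene. They hold distal enhancers, alternative promoters and small RNA genes, and long introns are typical of genes for synaptic adhesion and neuronal wiring. An intronic element can act on its own host gene or on another gene, so the host and the nearest transcription start site (TSS) are 2 different labels for the same region.

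The libraries labelled KO had less Riox2 RNA. Riox2 measured 19.96, 17.2 and 18.5 CPM (counts scaled to library size) in WT and 3.26, 3.78 and 3.70 CPM in KO, a log2 fold change of -2.37 (edgeR, SE 0.15, adjusted p = 0.000324). All 12 neural stem and progenitor markers passed the RNA count filter and summed to 7165 to 7448 CPM in WT and 7673 to 8648 in KO. Some markers listed for neurons, astrocytes and the oligodendrocyte lineage passed too, but their sums do not by themselves show mature cells. Within the astrocyte sum, Aldh1l1 averaged 895 CPM in WT and 841 in KO. The myelin gene Mbp averaged 1.34 CPM in WT and 1.32 in KO, and Mog and Stmn2 did not pass. Neuronal markers (5 of 6 passed) summed to 526 to 729 CPM in WT and 671 to 940 in KO. Astrocyte markers (4 of 4) summed to 1024 to 1331 in WT and 912 to 1134 in KO. Oligodendrocyte lineage markers (5 of 6) summed to 776 to 1099 in WT and 736 to 1017 in KO. Of ependymal markers 2 of 3 passed, of fibroblast markers 1 of 4, and of microglial, endothelial and erythroid markers 0 of 6, 0 of 3 and 0 of 3. The part of these cell types in the results was not tested. CUT&Tag libraries held 2913959 to 4038765 reads in regions, which was 5.61 to 6.10% of their total reads, and RNA-seq libraries held 19922983 to 25939348 counts.

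Later-intron regions resembled the other non-promoter classes in width. Their median width was 274 bp (quartiles 206 and 375), and 3992 of them (22.1%) were exactly 200 bp, the smallest width present. The widest was 2158 bp, and 103 exceeded 1 kb. First-intron regions had a median of 280 bp and intergenic regions of 279 bp, with 21.5% and 21.8% at 200 bp. Promoter regions within 1 kb of a TSS were wider, with a median of 330 bp and 13.9% at 200 bp. The distance from a later-intron region to the TSS of its assigned gene ran from 3001 to 560747 bp with a median of 15807 bp, and the promoter classes of the authors' annotation cover the first 3 kb. A total of 2761 regions (15.3%) lay beyond 50 kb.

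The median intron number was 4, with quartiles of 2 and 9. Intron 2 held 4661 (25.8%), intron 3 held 2863 (15.8%), and introns 10 or later held 4197 (23.2%). The last intron of the transcript held 2746 (15.2%). Across chromosomes the counts ranged from 558 on chromosome 19 to 1469 on chromosome 2 among autosomes. Chromosome X carried 63 regions, or 0.349% of the class, against 1.505% of the regions within 1 kb of a TSS and 0.423% of first-intron regions. The chromosome X counts were looked up after earlier values had been seen.

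The regions were spread over 6167 host genes, meaning the genes whose introns contain them. A single region was found in 2951 hosts, and 308 hosts with at least 10 regions held 4906 regions (27.2%). Fgfr2, a fibroblast growth factor receptor, had the most at 53, followed by Pde4d, a cAMP phosphodiesterase, with 48. Fhit, a dinucleoside hydrolase at a fragile site, Lsamp, a limbic adhesion protein, and Nrxn3, a presynaptic neurexin, had 41 each. The synaptic scaffold gene Magi2 and the neuroligin gene Nlgn1 had 36 each, and Camta1, a transcription activator, and Csmd1, a complement regulator, had 33 each.

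The Fgfr2 count rests on 1 transcript model. Of the 53 regions, 52 were placed in intron 2 of 6 of that transcript, where they extended from 129875027 to 132676935 on chromosome 7 (GRCm39), a stretch of 2.80 Mb. These 52 regions were assigned to 26 different genes by nearest TSS, and only 2 of the 53 were assigned to Fgfr2 itself. In all, 5 introns contained regions more than 500 kb apart, and they held 129 regions (0.714%). These details of Fgfr2 were chosen after its values were seen.

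Host and assigned gene were the same for 10291 regions (57.0%) and differed for 7776 (43.0%). Of the regions where they differed, 5906 (76.0%) were assigned to predicted or clone-named genes. The RNA of the host passed the count filter for 79.0% of these regions, and the RNA of the assigned gene for 16.0%. Over all later-intron regions the RNA was measurable for 80.7% by host and 53.6% by assigned gene. The 22 regions assigned to Trim32, a ubiquitin ligase gene, all lay in introns of Astn2, which encodes a neuronal astrotactin and contains Trim32.

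MicroRNA genes show the same split between host and nearest TSS. They were the assigned gene of 292 regions, through 132 microRNA genes of which 117 matched a RefSeq entry. The genes with the most such regions were Mir6239 with 17, all in Gpc6, Mir346 with 15 in Grid1, and Mir5623 with 12 in Atrnl1. Mir218-2 had 6 in Slit3, the axon guidance ligand gene that hosts it. The mature sequences from RefSeq (GRCm38.p6) are given for 3 of these genes to identify the small RNAs that stand in for their host in the annotation, with the seed, bases 2 to 8, in capitals. The 3 seeds differ from each other.
mmu-miR-6239: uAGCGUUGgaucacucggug
mmu-miR-346-5p: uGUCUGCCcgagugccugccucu
mmu-miR-218-5p: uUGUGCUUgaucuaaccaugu
The nearest of their regions lay 9438 bp from Mir6239, 8494 bp from Mir346 and 7719 bp from Mir218-2. The median log2 fold change of the regions, KO over WT, was 0.14 for Mir6239, 0.11 for Mir346 and -0.18 for Mir218-2, and none of these regions had an unadjusted p under 0.05. The microRNAs themselves were not analysed here, and this set was chosen after values were seen.

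The median signal of a later-intron region was 34.5 and 34.6 CPM per kb of region width in the WT libraries and 35.4 and 35.6 in the KO libraries. CPM here are relative to reads in all regions, so they cannot show a change shared by every region. First-intron regions measured 35.5 and 35.2 in WT and 35.6 and 35.5 in KO. Intergenic regions measured 33.4 and 32.7 in WT and 34.1 and 34.1 in KO. Both KO libraries were above both WT libraries in later introns and in intergenic regions alike, and the genotypes overlapped in first introns. The median log2 fold change was 0.05 in intergenic regions as in later introns. The difference in later introns was 0.936 CPM per kb (exact permutation test, two-sided, p = 0.333), and 2 libraries against 2 cannot give a smaller p than 0.333.

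Later-intron regions took 22.2% and 22.3% of the reads in regions in WT and 22.9% and 22.8% in KO. The KO share was higher by 0.593 percentage points, with no overlap (exact permutation p = 0.333). Relative to first-intron reads of the same library, the log2 ratio was 1.37 and 1.38 in WT and 1.39 and 1.40 in KO. Relative to reads within 1 kb of a TSS, it was -0.32 and -0.34 in WT and -0.23 and -0.26 in KO. Each ratio was higher in both KO libraries than in both WT libraries, with the same smallest possible p of 0.333. Regions entered through peaks called in these same reads. Of later-intron regions, 10120 were marked in KO libraries alone and 3546 in WT libraries alone (median log2 fold change 0.25 and -0.40). The share, the ratios and the signal per kb are therefore not independent of how regions were chosen.

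Signal fell with distance from the assigned TSS in every library. At 3 to 5 kb the medians were 38.1 and 38.1 CPM per kb in WT and 38.9 and 38.9 in KO. Beyond 100 kb they were 28.7 and 28.0 in WT and 31.1 and 29.9 in KO. The median log2 fold change, KO over WT, was 0.02 in the nearest band and 0.10 in the farthest. The share of regions with a peak mark in at least 2 libraries went from 31.6% to 25.3% over the same bands.

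**Figure D1:**
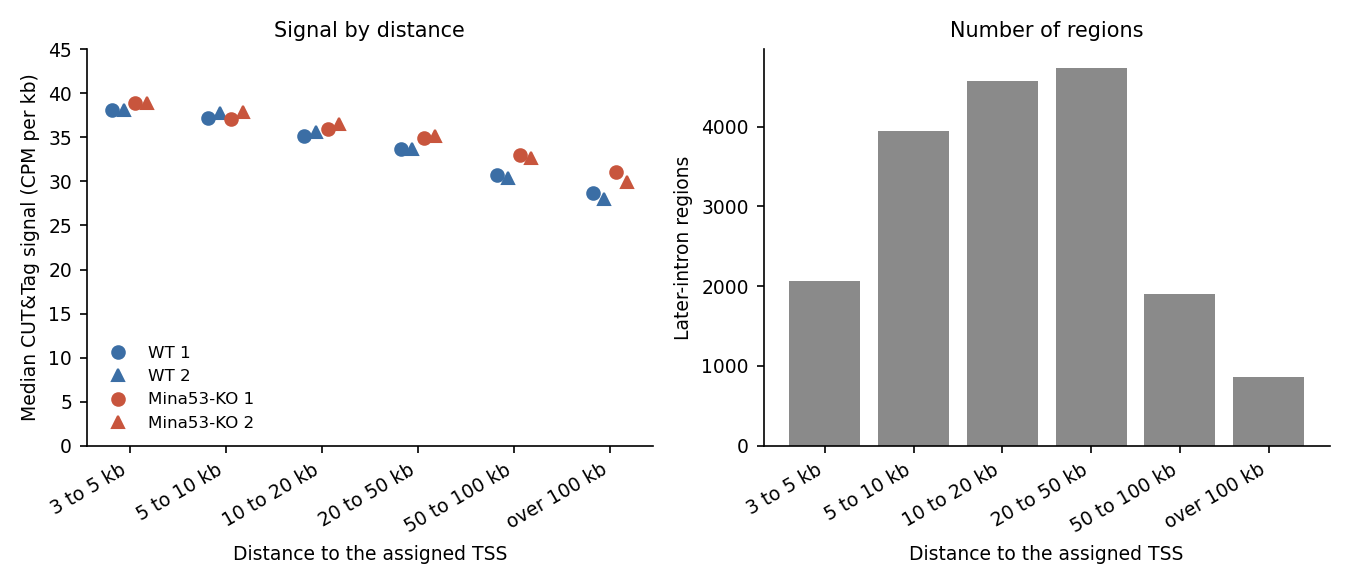
Median CUT&Tag signal of later-intron regions in CPM per kb of width (left, 1 point per library, WT blue and KO red) and number of regions (right, bars) by distance to the assigned TSS. All 4 libraries fall from about 38.1 to 38.9 CPM per kb at 3 to 5 kb to 28.0 to 31.1 beyond 100 kb, and the KO points lie above the WT points beyond 10 kb.

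Medians were also taken by intron number and width. Regions in intron 2 measured 34.9 and 34.6 CPM per kb in WT and 35.4 and 35.6 in KO, and those in introns 10 or later 35.1 and 35.3 in WT and 35.8 and 36.4 in KO. The 103 regions over 1 kb measured 47.4 and 46.8 in WT and 48.4 and 46.7 in KO, and the 200 bp regions 33.96 and 32.9 in WT and 35.4 and 35.6 in KO.

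Peak marks of later-intron regions were mostly private to 1 library. The authors marked a peak in 1 library for 12453 regions (68.9%), in 2 for 2959, in 3 for 1407 and in all 4 for 1248 (6.91%). Within 1 kb of a TSS 19.7% of regions were marked in all 4 libraries. WT libraries had 4679 and 5097 of the later-intron regions marked, and KO libraries 10259 and 7549. Of the regions marked once, 9069 (72.8%) were marked in a KO library and 3384 in a WT library, and over all regions 31611 of 44101 marked once (71.7%) were marked in a KO library.

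The mark and the signal are 2 readings of the same reads. Regions marked in WT 1 alone measured 50.1 CPM per kb there and 31.1, 30.5 and 31.1 in WT 2, KO 1 and KO 2. Regions marked in KO 2 alone measured 43.0 there and 29.1, 29.2 and 27.2 in WT 1, WT 2 and KO 1. The high value was thus found in the marked library and not in the other library of the same genotype. Regions marked in both genotypes, 4401 in number, measured 42.0 and 43.1 in WT and 39.6 and 40.3 in KO.

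**Figure D2:**
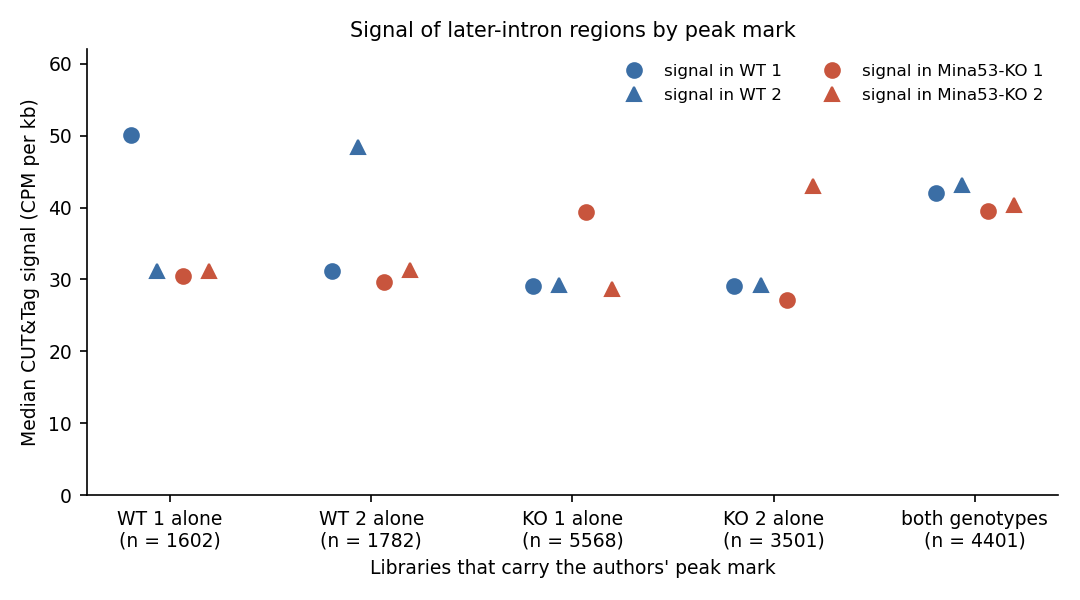
Median CUT&Tag signal in CPM per kb (vertical axis) of later-intron regions grouped by the libraries that carry the authors' peak mark (horizontal axis), 1 point per library. A region marked in 1 library is high in that library alone, for example 50.1 in WT 1 against 30.5 to 31.1 elsewhere, and regions marked in both genotypes are at 39.6 to 43.1 in all libraries.

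The sign of the class median depended on these marks. Over all 18012 tested later-intron regions the median log2 fold change was 0.05, beside 0.01 over all tested regions. Among the 12453 regions marked once it was 0.10, and among the 5614 marked in at least 2 libraries it was -0.03. In the latter the signal was 40.3 and 40.8 CPM per kb in WT and 39.0 and 40.3 in KO, so the genotypes overlapped. The same restriction gave -0.05 for first-intron, -0.04 for intergenic and -0.15 for promoter regions within 1 kb. The share of reads in later introns was higher in KO under this restriction, by 0.466 percentage points. The restriction still depends on the marks. It keeps 1051 regions marked in both KO and no WT libraries, and 162 marked in both WT and no KO libraries. This share is therefore no independent check.

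No single later-intron region was called between KO and WT (0 of 18012 at an adjusted p under 0.05, edgeR's quasi-likelihood test, adjusted over all regions). Across all regions 5 of 69209 were called, or 0.00722%. An unadjusted p under 0.05 was found for 773 later-intron regions (4.29%), and for 5.35% of all regions. Of the 773, 340 were higher in KO and 433 lower, beside 1.7% higher and 3.65% lower over all regions. DESeq2 called 0 and gave 357 with an unadjusted p under 0.05. In the authors' deposited table every later-intron region has a q-value of 1. There 412 (2.28%) have a p-value under 0.05, beside 2.34% of all regions. Of these 412, 297 were higher and 115 lower in KO, so the balance of directions differed from that of the edgeR fit.

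Libraries of a genotype did not overlap for 3346 regions higher in KO (18.6%) and 2637 lower (14.6%), against 16.9% and 17.8% over all regions. Fitted log2 fold changes ran from -2.22 to 2.80 with quartiles of -0.22 and 0.32, and their median SE was 0.40. Agreement between libraries was alike within and between genotypes. Over later-intron regions the SD of the log2 ratio of 2 libraries was 0.59 within WT and 0.58 within KO, and 0.56 to 0.60 between genotypes.

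**Figure D3:**
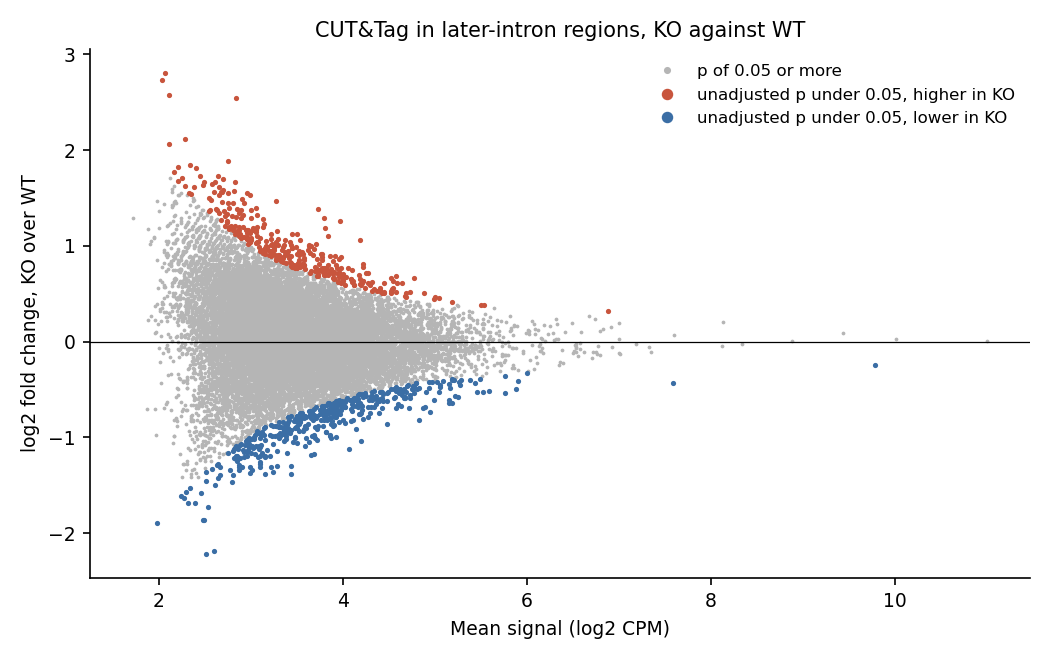
Log2 fold change of CUT&Tag signal, KO over WT (vertical axis), against mean signal in log2 CPM (horizontal axis) for 18012 later-intron regions, with unadjusted p under 0.05 in red (340 higher) and blue (433 lower). No point passes an adjusted p of 0.05, and the largest fold changes are at the lowest signal.

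The region with the smallest p was in Exoc4, which encodes an exocyst subunit that tethers secretory vesicles. It covers 33674011 to 33674358 on chromosome 6, in intron 10 of 17, and had read counts of 7 and 4 (WT) against 36 and 44 (KO). Both KO libraries were above both WT libraries, and the log2 fold change was 2.54 (edgeR, SE 0.63, adjusted p = 0.164). It was marked in 1 library, and its host had 307 CPM of RNA in WT and 329 in KO (adjusted p = 0.806). Exoc4 hosts 19 regions including this one, of which 13 had a higher fitted value in KO, beside 54.8% of all tested later-intron regions.

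Next on the higher side, a region in intron 13 of 26 of Fhod3, a formin that assembles actin, had read counts of 26 and 26 (WT) against 82 and 74 (KO), a log2 fold change of 1.26 (edgeR, SE 0.32, adjusted p = 0.227). A region in intron 2 of 4 of Arhgap20, a GTPase-activating protein gene (chromosome 9, 51706615 to 51707398), had read counts of 32 and 35 (WT) against 108 and 69 (KO), with a log2 fold change of 1.07. The remaining 2 lay on chromosome 9 in clone-named genes. All 5 were without overlap between genotypes, which choosing by smallest p favours, and none passed the adjusted threshold. Of all tested later-intron regions, 18.6% were higher in KO without overlap.

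On the lower side the smallest p belonged to intron 6 of 11 of Slc6a17, a synaptic vesicle transporter of neutral amino acids (chromosome 3, 107386182 to 107386624). It had read counts of 94 and 41 (WT) against 45 and 32 (KO), or 30.4 and 14.2 CPM against 11.0 and 9.48. The 2 WT libraries differed more from each other than WT 2 did from KO. Its log2 fold change was -1.12 (edgeR, SE 0.30, adjusted p = 0.276). Without WT 2 this was the 1 later-intron region that was called, with a log2 fold change of -1.56 and an adjusted p of 0.017. Slc6a17 RNA was 26.4 ± 4.20 CPM in WT and 39.5 ± 3.57 in KO (SD, n = 3, adjusted p = 0.0784, edgeR).

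The next regions on that side were in Potefam3f and in Lmf1, the gene of a lipase maturation factor. The Potefam3f region (chromosome 8, 20484508 to 20484988) measured 42.0 and 29.1 CPM in WT and 22.7 and 17.5 in KO. The Lmf1 region (chromosome 17, 25827749 to 25827948) measured 22.0 and 26.3 CPM in WT and 12.7 and 10.7 in KO. Their log2 fold changes were -0.82 and -1.04, each with an adjusted p of 0.287 (edgeR).

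A region in the last intron of Erdr1y, on chromosome Y at 90822441 to 90824590, was both among the strongest and among those with the smallest p. It measured 231 and 210 CPM in WT and 159 and 169 in KO, a log2 fold change of -0.43 (edgeR, SE 0.12, adjusted p = 0.469). Erdr1y RNA fell from 97.2 ± 7.36 to 54.0 ± 5.38 CPM (SD, n = 3, adjusted p = 0.00907, edgeR), a call lost without KO 1 or without WT 3. Erdr1 has near-identical copies on the sex chromosomes, so reads counted for this copy are uncertain in both assays. The last of the 5 regions on that side, in intron 2 of 39 of Nav2, a cytoskeletal navigator gene, measured 40.8 and 34.9 CPM in WT and 20.7 and 24.9 in KO.

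**Figure D4:**
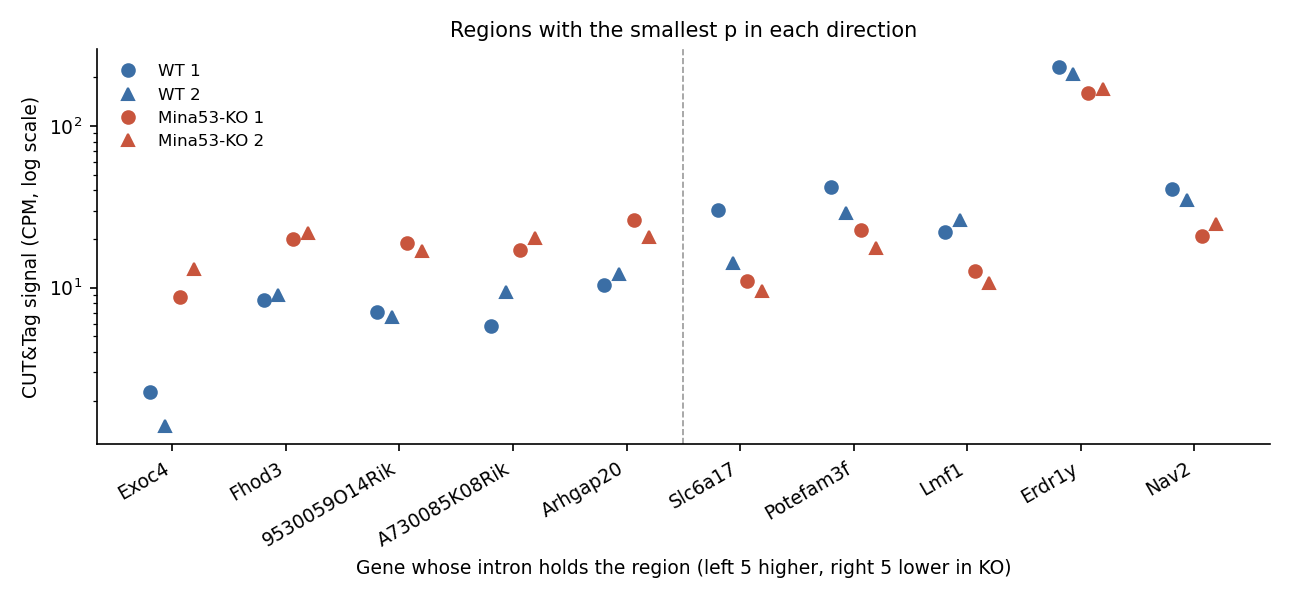
CUT&Tag signal in CPM (log scale) per library at the 10 later-intron regions of smallest p, 5 per direction, named by host gene. The WT (blue) and KO (red) points do not overlap, which the choice by smallest p favours. The Slc6a17 point of WT 1 at 30.4 stands apart from WT 2 at 14.2.

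A few regions stood far above the rest. The median level was 9.91 CPM, the highest 2042 CPM, and 30 regions exceeded a mean of 100 CPM. The 2 strongest were neighbours in intron 2 of 5 of 2700054A10Rik on chromosome 17 and held 1.56% and 1.15% of later-intron reads in WT and 1.47% and 1.25% in KO. The stronger, 13772035 to 13773482, measured 2335 and 1737 CPM in WT and 2212 and 1884 in KO. In both genotypes library 1 was higher than library 2, and the fitted log2 fold change was 0.01 (edgeR, SE 0.09, adjusted p = 0.994).

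None of the 10 strongest regions was called. The region in intron 3 of 26 of Chl1, an L1-family adhesion molecule (chromosome 6, 103625931 to 103626353), measured 986 and 922 CPM in WT and 792 and 823 in KO. The groups did not overlap, and the log2 fold change was -0.24 (edgeR, SE 0.10, adjusted p = 0.879). Chl1 RNA fell from 335 ± 64.0 to 141 ± 21.5 CPM (SD, n = 3, adjusted p = 0.00798, edgeR), and this call too was lost without KO 1 or without WT 3.

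For 5 other strong regions the host was not called in RNA, or did not pass the RNA filter. Mepe, a bone matrix phosphoglycoprotein gene that did not pass the RNA filter, had a region of 666 and 672 CPM in WT and 677 and 748 in KO. A region of Cdk8, the Mediator kinase, measured 499 and 435 CPM in WT and 472 and 467 in KO. A region of the cAMP phosphodiesterase gene Pde4b measured 314 and 334 in WT and 311 and 328 in KO. In the last 2 the genotypes overlapped, and their log2 fold changes were 0.01 and -0.02. A region of Cadps2, a factor for dense-core vesicle release, measured 246 and 272 in WT and 291 and 305 in KO (adjusted p = 0.933, edgeR). Jarid2, a Polycomb cofactor, had one of 202 and 175 in WT and 199 and 197 in KO.

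Genes with later-intron regions were compared in RNA. Of 3972 tested assigned genes, 184 were called between KO and WT (4.63%; edgeR, adjusted p under 0.05), 98 higher and 86 lower, against 3.43% of all tested genes (1.77% higher and 1.66% lower). By host, 216 of 4431 were called (4.87%), 110 higher and 106 lower. Tested genes that host none had 2.84% called, and hosts of a first-intron region 6.22%. The share differed with the number of regions, being 5.61% for hosts of at least 2, 6.30% for at least 5 and 7.64% for at least 10. Mean level and length moved as well, with a median of 4.99 log2 CPM and 3881 bases for hosts, and 4.24 log2 CPM and 2496 bases for the genes hosting none, and their part in this difference was not tested.

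The RNA calls varied with the libraries included. The 184 assigned genes became 51 when WT 3 was left out (1.27%, against 0.931% of all tested genes) and 61 when KO 2 was (1.51% against 1.14%). They became 64 when KO 1 was left out (1.59% against 1.15%) and 111 when WT 2 was (2.76% against 2.00%). DESeq2 gave 318 (7.63% against 5.54%). Mitochondrial genes took 2.31, 5.71 and 3.52% of counts in WT and 2.68, 2.65 and 4.64% in KO. With the split at 3% as a covariate, an alternative chosen after seeing the data, 577 assigned genes were called (14.5%, against 11.1% of all tested genes).

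Later-intron signal was then read by the direction of RNA. The 297 regions assigned to genes with higher RNA in KO had a median log2 fold change of 0.05, and 54.5% had a higher fitted value in KO. The 255 regions of genes with lower RNA had a median of 0.07 with 61.6% higher. Over all tested later-intron regions these values were 0.05 and 54.8%. CUT&Tag and RNA differences had the same sign for 260 of 552 regions (47.1%), and by host gene for 422 of 852 (49.5%). None of these regions was called.

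Among hosts with a large rise of RNA, Cdk6, a G1 cyclin-dependent kinase, had 7 regions. Its RNA was 9.54, 11.9 and 9.68 CPM in WT and 45.4, 48.0 and 60.1 in KO, a log2 fold change of 2.30 (edgeR, SE 0.16, adjusted p = 0.000368). The genotypes were far apart in RNA. The regions summed to 164 and 184 CPM in WT and 192 and 189 in KO. The strongest, in intron 4 of 7 (chromosome 5, 3486964 to 3488707), had read counts of 342 and 338 (WT) against 535 and 411 (KO) with a log2 fold change of 0.15 (edgeR, SE 0.14, adjusted p = 0.934). One region in intron 2 (3435015 to 3435400) went from 24 and 31 reads to 47 and 68. Its log2 fold change was 0.76, with an unadjusted p of 0.0302 and an adjusted p of 0.914 (edgeR).

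Sox2ot, a long noncoding RNA gene that overlaps Sox2, hosted 22 regions, of which 7 were assigned to it. Its RNA was 14.01, 15.9 and 15.0 CPM in WT and 63.3, 54.3 and 69.9 in KO. Whether the counting used strand is not stated, so reads of overlapping genes could be mixed. Its regions summed to 221 and 198 CPM in WT and 215 and 230 in KO, so the CUT&Tag values overlapped between genotypes.

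Of the 5 hosts with the largest rise in RNA, Thbs2, Sulf1 and Sfrp1 had 1 region each. Thbs2, a matricellular thrombospondin, had RNA of 3.88, 3.45 and 5.13 CPM in WT and 32.4, 34.5 and 34.5 in KO, while its region measured 27.5 and 26.3 CPM in WT and 19.5 and 19.3 in KO (log2 fold change -0.47, edgeR, SE 0.24, adjusted p = 0.932). The fitted values of the 2 assays thus had opposite signs, and the region did not pass the test. As the antibody is unstated, the sign that would go with higher RNA is unknown. Sulf1, a heparan sulfate endosulfatase, had RNA log2 fold change 2.74 and a region of 9.70 and 7.61 CPM in WT and 10.2 and 10.1 in KO. Sfrp1, a secreted Wnt modulator, had RNA log2 fold change 2.35 and a region of 12 and 11 reads (WT) against 23 and 30 (KO). The log2 fold change of that region was 0.90 (adjusted p = 0.933, edgeR).

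Among hosts with higher RNA and many regions, Cdh13, a cadherin without a cytoplasmic tail, had 25 regions that summed to 342 and 336 CPM in WT and 331 and 344 in KO, and RNA that rose 1.75-fold. In Nckap5 the 24 regions summed to 226 and 254 CPM in WT and 249 and 227 in KO. In Dnm3, a dynamin gene, 19 regions summed to 182 and 199 in WT and 198 and 211 in KO. Tenm2, a teneurin adhesion gene, had 17 regions of 150 and 153 CPM in WT and 164 and 172 in KO, with RNA of 0.338, 0 and 0.116 CPM in WT and 2.03, 1.04 and 1.36 in KO. The RNA calls of these 4 genes were lost when single libraries were left out, for Cdh13 in 3 of 6 cases, Nckap5 and Tenm2 in 4 and Dnm3 in all 6.

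Hosts with lower RNA were read in the same way. Odad2, an axonemal dynein docking gene, had RNA of 3.88, 5.43 and 5.86 CPM in WT and 0.593, 0.540 and 0.389 in KO, and 5 regions summing to 98.97 and 123 CPM in WT and 120 and 114 in KO. Lmx1b, a LIM homeodomain factor of the midbrain and hindbrain, had an RNA log2 fold change of -2.61 and 3 regions of 78.6 and 72.3 CPM in WT and 72.7 and 71.7 in KO. Bcas1, an oligodendrocyte lineage gene, had an RNA log2 fold change of -2.13 and 1 region of 7.12 and 10.4 CPM in WT and 11.5 and 9.78 in KO. For Odad2, Lmx1b and Bcas1 alike the region values overlapped between genotypes.

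The glutamate receptor gene Gria4 (RNA log2 fold change -1.97) and Ndrg1 (-1.90) had 1 weak region each, with 2.67 to 9.02 and 6.52 to 14.9 CPM over the 4 libraries. Hosts with lower RNA and many regions included Anks1b, a postsynaptic scaffold, with 20, and Atxn1, Syne1 and Tenm4 with 17 each. Atxn1 regions summed to 145 and 143 CPM in WT and 164 and 173 in KO, and those of the teneurin gene Tenm4 to 167 and 154 in WT and 184 and 183 in KO. In Atxn1 and Tenm4 the summed signal was higher in both KO libraries while RNA was lower, and no region of either was called. Anks1b regions summed to 195 and 210 CPM in WT and 205 and 185 in KO. Those of Syne1 summed to 161 and 185 in WT and 175 and 171 in KO. In these last 2 genes the genotypes overlapped. How many of all hosts have sums without overlap was not counted. With 1 of the 6 RNA-seq libraries left out, the RNA call of Ndrg1 and Anks1b was lost in 1 case (without WT 3), that of Tenm4 in 3, of Atxn1 in 4 and of Syne1 in 5.

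A further 3 genes were looked up after their values were seen. Ltbp1, a TGF-beta binding matrix protein gene, had 11 regions with 10 higher fitted values, sums of 80.2 and 85.5 CPM in WT and 105 and 106 in KO, and RNA that rose 1.99-fold (adjusted p = 0.00385, edgeR). None of these 11 regions was called or marked in all 4 libraries. Over all tested later-intron regions 54.8% had a higher fitted value. Slc4a4, a bicarbonate cotransporter of astrocytes, had 13 regions with 10 higher, sums of 102 and 103 in WT and 118 and 93.7 in KO, and RNA that fell (log2 fold change -0.83, adjusted p = 0.0427, edgeR). The RNA call of Slc4a4 was lost in 4 of the 6 cases with 1 library left out. Tnc, the tenascin-C gene, rose 2.27-fold in RNA and had 0 later-intron regions.

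**Figure D5:**
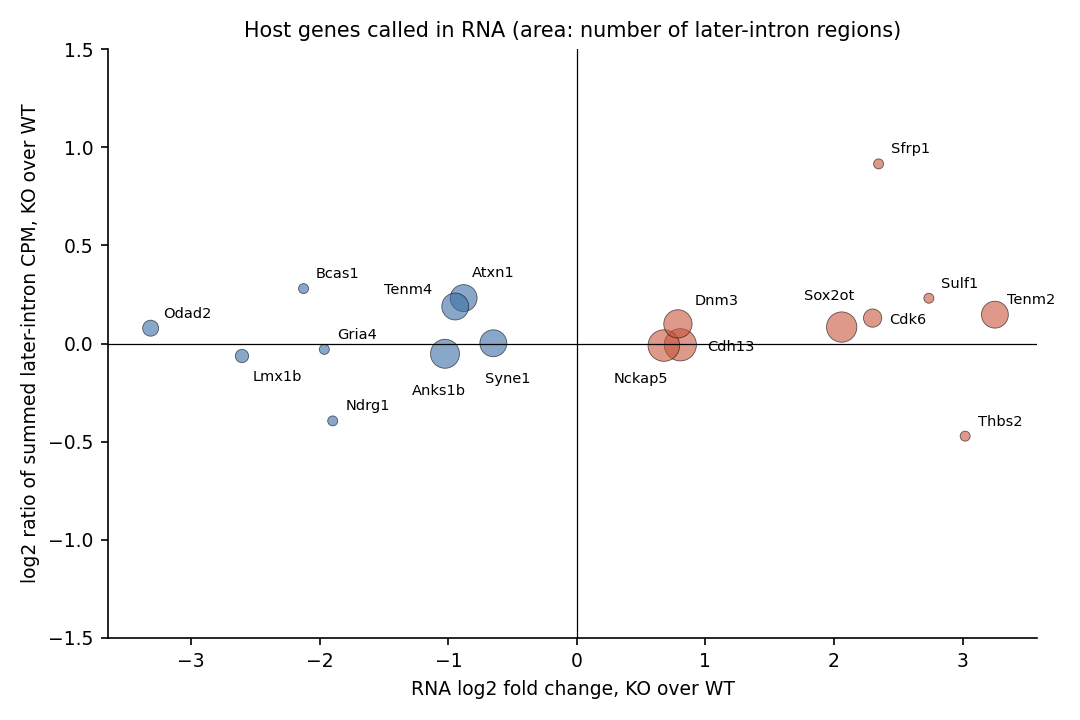
RNA log2 fold change of 18 host genes called in RNA (horizontal axis) against the log2 ratio of their summed later-intron CPM, KO mean over WT mean (vertical axis), with point area for the number of regions and colour for the RNA direction. RNA values run from -3.32 to 3.25, and genes of both RNA directions lie on both sides of 0 on the vertical axis.

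The WT signal was set beside the WT RNA of the gene, with genes divided by WT RNA per kb of transcript. Regions assigned to genes that did not pass the RNA filter measured 33.3 and 33.0 CPM per kb in the WT CUT&Tag libraries, those in the lowest of 4 equal bands of expressed genes 35.0 and 34.9, and those in the highest band 36.3 and 37.3. By host the corresponding values were 32.3 and 31.8, then 33.4 and 33.3, then 35.8 and 36.3. A later-intron region was present in 22.7% of genes of the lowest band by host, 35.8% of the band below the highest and 24.8% of the highest.

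Gene lists were described by their counts of regions, beside 54.8% higher, a median log2 fold change of 0.05 and 4.29% with an unadjusted p under 0.05 over all tested later-intron regions. That share was 5.01% in the adhesion list, 3.81% among ion channels, 4.86% for axon guidance, 4.07% for neuronal genes and 4.88% for cytoskeleton genes. It was 5.75% for neural stem genes, 3.70% for patterning factors, 4.55% for SOX and bHLH factors, 3.33% for signalling, 6.88% for chromatin, 2.01% for matrix and 6.52% for cell cycle genes. No region of any list was called. The adhesion and synapse organiser list was the largest, with 57 of 68 genes hosting 801 regions, of which 23 were higher and 17 lower at an unadjusted p under 0.05 (median 0.08). Its hosts with the most regions were Lsamp, Nrxn3 and Magi2. Nrxn3 regions summed to 336 and 386 CPM in WT and 411 and 374 in KO, which overlap. In RNA 3 of its 54 tested hosts were called higher and 6 lower, beside 4.87% of all tested hosts and 3.43% of all tested genes called.

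Ion channel genes had 47 of 55 members hosting 371 regions (5 higher, 9 lower at unadjusted p under 0.05, median 0.09), with Grid1 at 28 and Itpr2 at 20. Axon guidance genes had 32 of 38 members hosting 185 (3 higher, 6 lower, median 0.09), led by Slit3 with 22, Sema6d, a transmembrane semaphorin, with 18 and Dscam, a homophilic adhesion receptor, with 15. Sema6d regions summed to 191 and 190 CPM in WT and 177 and 177 in KO. Neuronal and neuroblast genes had 18 of 32 members hosting 172 (2 higher, 5 lower, median 0.08), led by the splicing factor gene Rbfox1 with 25. Cytoskeleton and small GTPase genes had 43 of 48 hosting 329 (8 higher, 8 lower, median 0.05), with the formin gene Diaph3 at 22 and Elmo1 at 20.

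Transcription factor and stem cell genes were taken next. Of 30 neural stem and radial glia genes, 11 hosted 87 regions (1 higher, 4 lower at unadjusted p under 0.05, median -0.01), led by Zbtb20 with 25, Nfia with 14 and Msi2 with 11. In this list a region of the hedgehog effector gene Gli3 (chromosome 13, 15691903 to 15692306) had read counts of 25 and 25 (WT) against 64 and 53 (KO). Scaled for library size, its log2 fold change was 0.90 (adjusted p = 0.860, edgeR). A region of the RNA-binding gene Msi1 (chromosome 5, 115579509 to 115579714) had read counts of 60 and 49 (WT) against 52 and 33 (KO) (adjusted p = 0.911, edgeR). Patterning factors had 22 of 47 hosting 110 (3 higher, 1 lower, median 0.02), with Zfhx3 at 25. SOX, bHLH and E-protein factors had 8 of 27 hosting 88 (2 higher, 2 lower, median -0.03), with Sox5 at 26 and Sox6 at 22.

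The Zfhx3 regions summed to 261 and 259 CPM in WT and 289 and 288 in KO, and those of Sox5 to 295 and 295 in WT and 317 and 306 in KO. Npas3, a bHLH-PAS factor gene, had 19 regions at 223 and 198 in WT and 197 and 168 in KO. The Zfhx3 and Sox5 sums were higher and the Npas3 sums lower in both KO libraries, and none of the 3 genes was called in RNA.

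Signalling genes of the Wnt, Notch, hedgehog, FGF and BMP pathways had 46 of 66 members hosting 180 regions (1 higher, 5 lower at unadjusted p under 0.05, median -0.05). Of these 180, 53 were the Fgfr2 regions described above, of which only 2 were assigned to Fgfr2. A region of Igf1r, the insulin-like growth factor receptor gene (chromosome 7, 67752255 to 67752654), had read counts of 51 and 61 (WT) against 41 and 35 (KO). Its log2 fold change was -0.88 (adjusted p = 0.773, edgeR). Chromatin and arginine methylation genes had 33 of 65 hosting 160 (5 higher, 6 lower, median 0.04), led by Arid1b, a BAF complex subunit, with 23. A region in the last intron of Prmt3, an arginine methyltransferase gene (chromosome 7, 49501668 to 49501885), had read counts of 20 and 9 (WT) against 47 and 38 (KO). Its log2 fold change was 1.23 (adjusted p = 0.849, edgeR). In RNA 0 of the 33 chromatin hosts were called (edgeR), beside 4.87% of all tested hosts.

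Extracellular matrix genes had 31 of 46 hosting 151 regions (0 higher, 3 lower, median 0.14), led by the glypican genes Gpc6 with 29 and Gpc5 with 16. Of 30 tested hosts, 4 had higher and 1 lower RNA, beside 110 higher and 106 lower of all 4431 tested hosts. Over all tested genes 1.77% were higher and 1.66% lower. Cell cycle regulators had 12 of 32 hosting 46 (2 higher, 1 lower, median 0.03), led by Cdk14 with 17. Oligodendrocyte lineage genes had 6 of 20 hosting 12 (0 higher, 1 lower, median 0.08), and 7 of the 12 were in the myelin gene Mbp. Astrocyte genes had 5 of 20 hosting 18, of which 13 were in Slc4a4. In that list 15 of 18 had a higher fitted value in KO (median 0.29), and 0 had an unadjusted p under 0.05.

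Markers of other cell types hosted regions as well, with 10 of 33 genes holding 22 (0 higher, 1 lower at unadjusted p under 0.05, median 0.26). Pecam1, an endothelial adhesion gene, and Cx3cr1, the microglial fractalkine receptor gene, had 4 each although neither passed the RNA filter. A Pecam1 region marked in all 4 libraries (chromosome 11, 106568915 to 106569236) had read counts of 82 and 92 (WT) against 75 and 76 (KO). Scaled for library size, its log2 fold change was -0.52 (adjusted p = 0.903, edgeR). Flt1, a VEGF receptor gene, had 5 regions that summed to 40.1 and 32.2 CPM in WT and 44.6 and 58.1 in KO, and its RNA was higher in KO (log2 fold change 1.12, adjusted p = 0.00577, edgeR).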

How the data were processed

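The deposited CUT&Tag table gives the authors' whole-number counts for merged regions, with their peak mark per library, and RPM scaled by the authors to library totals with 1 added per count, per the file headers and values. The authors also deposited a log2 fold change, a p-value and a q-value for each region, without naming the test. The RNA-seq table holds the authors' expected counts for 57180 genes, rounded here to whole numbers. HISAT2, StringTie and the GRCm39 build are named in the submitters' processing notes. No label or header used here states the peak caller, antibody, input or counting strand.

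Each table was fitted whole with edgeR 4.0.16 (TMM scaling, filterByExpr with a minimum count of 10, robust quasi-likelihood test, KO against WT) in R 4.3.3, and Benjamini-Hochberg adjusted p-values under 0.05 were called. After filtering, 69209 regions and 15298 genes remained. The SE is the absolute log2 fold change over the root of F. TMM-scaled CPM were used throughout, and for CUT&Tag they refer to reads in regions. Single values per library were compared by a two-sided exact permutation test. Both fits were also run on counts simulated with known changes and a common dispersion per assay, and the outcome is not reported here. Precision is limited by 2 CUT&Tag libraries per genotype and a median of about 31 reads per later-intron region in the WT 1 library.

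Named were the 5 later-intron regions of smallest p per direction, the 10 strongest, the hosts with the most regions, up to 3 hosts and 2 regions from each of 15 gene lists, and, among hosts called in RNA, the 5 with the largest change (mean log2 CPM of at least 1) and the 5 with the most regions in each direction, leaving out predicted and clone-named genes except where a rank needed them. Some genes and regions that this rule selects are not reported here. Of 618 listed symbols, 615 were found. Members and lists were chosen with earlier results of these data known. Alternatives were DESeq2 1.42.0, RLE size factors, library totals, no filter on counts, 1 CPM, no robust dispersion, a replicate block, each library left out, regions with at least 2 peak marks, and regions more than 10 kb from the TSS. The mitochondrial covariate, the host gene, the 1 CPM filter for RNA and leaving out introns of over 500 kb were chosen after seeing the data.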

Additional observations from a re-analysis of the deposited data

How the results depend on the processing

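With 1 library left out, the later-intron regions called ranged from 0 to 1, the 1 being Slc6a17 without WT 2 (log2 fold change -1.56), and regions with an unadjusted p under 0.05 from 712 to 972. Calls stayed at 0 under every other alternative run. Against 773 regions with an unadjusted p under 0.05, DESeq2 gave 357, and fewer regions entered for the 288 with marks in at least 2 libraries and the 513 more than 10 kb from the TSS. A lone CUT&Tag library takes its spread from the other genotype. The median log2 fold change of later-intron regions was 0.0159 to 0.0741 with 1 library left out, 0.12 with library totals, where the median of all regions was 0.08, 0.0578 more than 10 kb from the TSS and -0.0295 with marks in at least 2 libraries. With those marks the share of reads was higher in KO by 0.466 percentage points, the signal per kb was lower (-0.891 CPM per kb) and the same-sign share was 40.6%. Without the 100 regions with the most reads the share differed by 0.718 percentage points. The share difference ranged from 0.542 to 0.644, the log2 ratio to first introns from 0.02 to 0.03, the signal per kb from 0.872 to 1.000 and the same-sign share from 46.6 to 52.4% with 1 CUT&Tag library left out. The causes were not tested.

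Assigned genes called in RNA numbered 318 by DESeq2, 577 with the mitochondrial covariate, 115 with at least 2 regions per gene, and 51 to 160 with 1 library left out. Riox2 ranged from -2.43 to -2.31 with 1 library left out. Some strong regions changed sign at values near 0. With 1 library left out the 2700054A10Rik regions ranged from -0.188 to 0.240 and from -0.182 to 0.285, Cdk8 from -0.0868 to 0.114, Pde4b from -0.0642 to 0.0252, Gm525 from -0.295 to 0.272 and Jarid2 from -0.0255 to 0.180. With library totals Pde4b was at 0.0522 and Gm525 at 0.0447.

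The labels do not state whether the replicate numbers pair the samples, and the values do not settle it. Same-numbered deviations correlated at 0.02 in CUT&Tag, where 2 libraries per genotype have mirrored deviations. In RNA-seq they correlated at 0.46, -0.37 and 0.27, and differently numbered ones at -0.68 to 0.56. With a replicate block 762 later-intron regions had an unadjusted p under 0.05, 0 were called, the median was 0.04, the share, ratio and signal differences were 0.593, 0.03 and 0.936, 80 assigned genes were called in RNA and Riox2 was at -2.37. At a median SE of 0.40 on the log2 scale, most single regions could show only large differences.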
